A study of Arabidopsis thaliana with 17 samples.

Results

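The 8 actin genes of Arabidopsis thaliana described here are the vegetative genes ACT2, ACT7 and ACT8 and the reproductive genes ACT1, ACT3, ACT4, ACT11 and ACT12. ACT2 is AT3G18780 (chr3:6474710-6477204, TAIR10), ACT7 is AT5G09810 (chr5:3052062-3054691) and ACT8 is AT1G49240 (chr1:18215800-18218339). ACT1 is AT2G37620 (chr2:15778941-15781561), ACT3 is AT3G53750 (chr3:19915257-19917775) and ACT4 is AT5G59370 (chr5:23949661-23951837). ACT11 is AT3G12110 (chr3:3857780-3860089) and ACT12 is AT3G46520 (chr3:17128211-17131466). They were taken by locus from 27444 protein-coding genes of the nuclear chromosomes. The rule uses no measured value, but the members were chosen with earlier results of these data known. Each deposited DNase I peak was assigned to a gene when its centre lay from 2000 bp upstream of the transcription start site (TSS) to 500 bp past the 3-prime end. Actin monomers polymerise into filaments that carry organelle traffic, anchor the endomembranes and guide tip growth in root hairs and pollen tubes. Flowering plants keep separate gene copies for this protein. The vegetative copies are known for expression in roots, stems and leaves, with ACT2 and ACT8 needed for root hair growth and ACT7 responsive to auxin, and the reproductive copies for expression in pollen, ovules and developing seeds.

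All plants were in the Col-0 background and carried a pair of transgenes for nuclear capture: a nuclear envelope protein (NTF) under a promoter that picks the cells, and the biotin ligase birA under the ACT2 promoter, through which tagged nuclei can be pulled down. NTF was driven by UBQ10 in whole roots of 7-day seedlings and in open and unopened flowers, by ADF8 in root hair cells of 7-day seedlings, and by GL2 in root non-hair cells and in the seed coat. The GL2 line was used at 10 days for non-hair replicates 1, 3 and 4, at 7 days for replicate 2, and for siliques 4 or 7 days past anthesis (DPA). Flowers came from plants grown on soil, with no age in the labels. Captured nuclei were treated with DNase I, so a peak marks DNA that the enzyme could reach. A list therefore describes cells in which both the NTF promoter and the ACT2 promoter of the birA transgene are active, so capture itself selects on the promoter of ACT2, and the labels give 1 line per promoter. Every line thus holds the native ACT2 promoter and a transgenic copy of it, whose fragments cannot be told apart, and ACT2 is judged apart throughout.

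The value for a gene in a list was the within-list percentile of its highest-scoring peak, 100 being the top of the list and 0 meaning no peak. The score is a height given by the authors for each peak and was used only for ranking within its list. The main set was the 11 lists with the mark 6.8M, taken to mean that they were made from equal numbers of reads, which no label states. They are 2 of whole root, 4 of non-hair and 2 of hair cells, the second hair list being a pool of replicates 2 and 3. The seed coat has replicate 1 and a pool of replicates 3 and 4 at 4 DPA, and a single list at 7 DPA that pools replicates 1 and 2. Each was cut to its best 24751 peaks, the length of the shortest. The flower lists carry no mark and were compared with the other 5 distinct unmarked lists, each cut to 11748 peaks, at unknown depth. A percentile cannot tell a site open in fewer nuclei from a site less open in each nucleus. Read counts are not in the lists, and counting error is therefore unknown. The labels do not say that replicates are separate cultures, so p-values measure the spread between lists.

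Marker genes followed the labels in part. The 5 root hair markers all had a peak in each of the 8 root lists, with percentiles summing to 188 to 318, and only RHD2 among them had one in the 3 seed coat lists (80.5 to 86.7), where EXPA7, EXPA18, COBL9 and RSL4 were at 0. They did not part hair from non-hair lists. Of the non-hair markers, WER went against its label, at 0 in non-hair replicates 2 and 4 and at most 6.71 in the other 2, against 11.9 and 2.88 in hair, and GL2 is itself the promoter of the transgene in the non-hair line. Of the 6 seed coat markers, 5 or 6 had a peak in the seed coat lists (sums 388 to 534) and 3 in the root lists (169 to 227), TT2, TT8 and STK being at 0 in the root. The 4 floral organ markers had peaks in both flower lists, and also in all 3 seed coat lists (sums 323 to 345, against 29.2 to 66.5 in the root). Of the 5 pollen markers, 2 had peaks in open and 3 in unopened flowers, while PRK2 and MYB97 were at 0 in every list. In the 6.8M lists the pollen markers summed to 112 to 135 in the seed coat and 14.4 to 91.2 in the root, all from BCP1 and AT59, with VGD1, PRK2 and MYB97 at 0 in all 11.

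The sequences under 6 peaks are shown because the results turn on them: the top peak of the ACT2 promoter in a root list, the single promoter peak of ACT8, the upstream site of ACT7, the promoter site of ACT11, and the upstream sites of ACT4 and ACT12 that were high in the seed coat. Each is 150 bases of the gene's own strand (plus), read from the RefSeq sequence of the TAIR10 chromosomes at the interval given in the files, and none overlaps an annotated gene. Capitals mark matches, on either strand, to any of 7 motifs. The core promoter box was searched as TATAAA and the G-box of bZIP and bHLH factors as CACGTG. For the telo box of ribosomal and cycling genes the letters were AAACCCTA, and for the site II element of TCP factors they were TGGGCC. The W-box of WRKY factors was searched as TTGAC, the L1 box of the epidermis as TAAATGNA, and the PB core of pollen promoters as TGTGGTT, each independently of the others.
ACT2 peak, chr3:6474381-6474530, from -329 to -180 bp of the TSS: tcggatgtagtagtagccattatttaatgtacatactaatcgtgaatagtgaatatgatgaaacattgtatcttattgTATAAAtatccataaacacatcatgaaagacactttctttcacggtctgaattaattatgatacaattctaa
ACT8 peak, chr1:18215621-18215770, from -179 to -30 bp of the TSS: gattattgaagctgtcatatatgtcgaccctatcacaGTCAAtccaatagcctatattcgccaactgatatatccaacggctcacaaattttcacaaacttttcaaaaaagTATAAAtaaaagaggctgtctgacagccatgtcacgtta
ACT7 peak, chr5:3050341-3050490, from -1721 to -1572 bp of the TSS: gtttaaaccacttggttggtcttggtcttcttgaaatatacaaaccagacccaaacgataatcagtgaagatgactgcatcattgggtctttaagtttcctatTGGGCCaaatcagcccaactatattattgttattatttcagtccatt
ACT11 peak, chr3:3857401-3857550, from -379 to -230 bp of the TSS: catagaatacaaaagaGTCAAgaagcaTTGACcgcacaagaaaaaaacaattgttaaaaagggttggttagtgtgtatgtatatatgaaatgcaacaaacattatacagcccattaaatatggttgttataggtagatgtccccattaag
ACT4 peak, chr5:23947741-23947890, from -1920 to -1771 bp of the TSS: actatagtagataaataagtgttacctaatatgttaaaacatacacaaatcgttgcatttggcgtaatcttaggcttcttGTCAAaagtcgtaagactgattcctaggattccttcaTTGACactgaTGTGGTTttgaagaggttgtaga
ACT12 peak, chr3:17127241-17127390, from -970 to -821 bp of the TSS: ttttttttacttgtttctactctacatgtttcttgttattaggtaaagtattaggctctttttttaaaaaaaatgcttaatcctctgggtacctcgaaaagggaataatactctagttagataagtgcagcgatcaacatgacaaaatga

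The letters of the core promoter box stand in the ACT2 and ACT8 peaks, and those of the W-box in the ACT8, ACT11 and ACT4 peaks. The pollen PB core, named from a tomato pollen promoter, matched in the ACT4 peak, the site II element in the ACT7 peak, and no motif in the ACT12 peak. Of 143661 distinct peak intervals of the same length in the 11 lists, 26.5% held those of the core promoter box, 37.8% the W-box, 15.1% the site II element and 2.77% the pollen PB core. In the 250 bases before the TSS, the pollen PB core was found at ACT4 and ACT7 (4.39% of all promoters), the site II element at ACT1, ACT3 and ACT12 (13.7%), and the G-box at ACT12 alone among the 8 genes (6.49%). The L1 box stood at ACT4 (9.91%) and the telo box at ACT3 (4.49%). The core promoter box was found at ACT8, ACT3 and ACT4 (47.3%) and the W-box at ACT2, ACT8 and ACT3 (44.9%). A match is a description of the letters, not of a bound factor.

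No peak of any of the 8 genes was centred in the leader intron, in a coding exon or in another intron. Of the 169 peaks of these genes in the 11 lists, 64 lay within 400 bp upstream of the TSS, 60 further upstream, 4 in the 5-prime UTR, 12 in the 3-prime UTR and 29 past the 3-prime end. Of these peaks, 159 were among the best 24751 of their list. In the unmarked lists the 95 peaks were placed likewise, with 36 close to the TSS and none in introns or coding exons. Actin coding sequences resemble each other, yet stretches of 36 bases that recur elsewhere in the nuclear genome made up 0% (ACT3) to 4.23% (ACT4 and ACT12) of the coding positions and at most 0.458% of the 2000 bp upstream. The sources do not say how long the reads were or how repeated matches were handled. All 8 genes lie on the plus strand, and for 7 of them (all but ACT7) the next TSS upstream belongs to a gene on the opposite strand. Here and throughout, a next or nearest TSS was sought among protein-coding genes only.

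**Figure D1:**
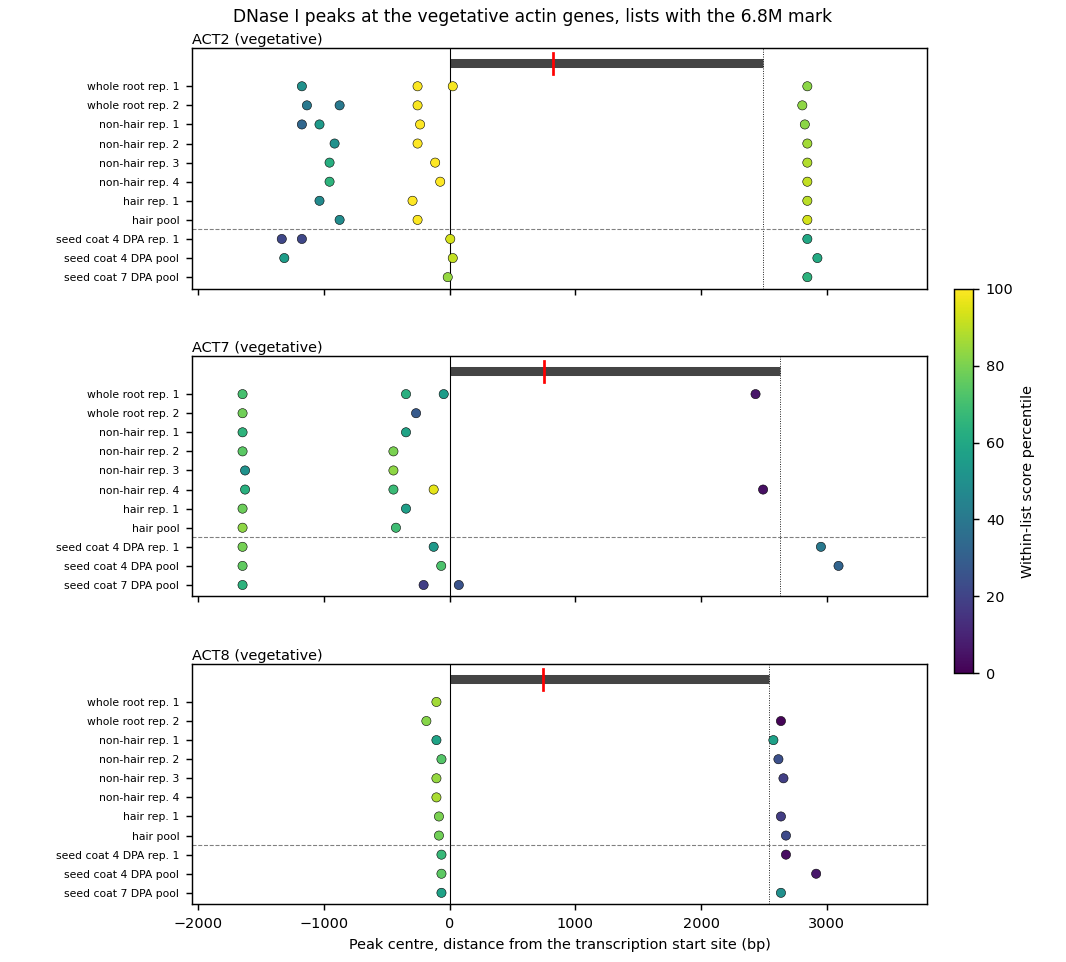
Peaks at ACT2, ACT7 and ACT8 in the 11 lists with the 6.8M mark. The horizontal axis is the distance of the peak centre from the TSS in bp, each row is a list (seed coat lists under the dashed line), and the colour is the within-list score percentile. The bar is the gene, its red tick the start codon, and the dotted line its 3-prime end. The top ACT2 peak sits at -295 to -75 bp in the root lists and at -15 to 25 bp in the seed coat lists.

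The order of the genes by mean percentile over the 11 lists departed from the division into vegetative and reproductive copies at ACT11 alone. The other reproductive genes ranked under all the vegetative ones. ACT2 was first at 96.9 ± 5.20 (SD, n = 11 lists), and the reproductive ACT11 was second at 90.7 ± 8.00, above ACT7 at 77.5 ± 8.95 and ACT8 at 75.4 ± 10.5. ACT3 (53.7 ± 14.4), ACT1 (52.1 ± 18.8), ACT12 (45.2 ± 28.9) and ACT4 (17.7 ± 30.4) followed. ACT11 exceeded ACT7 in 10 of 11 lists, by 13.2 ± 14.7 (mean difference ± SD). The highest peak of ACT11 lay nearer to the TSS of its neighbour AT3G12100 in every list but 4 DPA replicate 1. The neighbours ACT2 and ACT11 (difference 6.22 ± 10.9), ACT7 and ACT8 (2.10 ± 7.58), ACT3 and ACT1 (1.69 ± 16.8) and ACT1 and ACT12 (6.84 ± 20.4) differed by less than the spread of their differences, as ACT11 and ACT7 did. ACT8 over ACT3 (21.6 ± 13.4) and ACT12 over ACT4 (27.5 ± 21.7) differed by more, each in 10 of 11 lists. The 8 root lists weigh most in this order. In the 3 seed coat lists alone it was ACT11 (94.0), ACT2 (89.5), ACT12 (78.3), ACT1 (74.6), ACT7 (73.0), ACT8 (66.6), ACT4 (64.9) and ACT3 (62.6). The mean of ACT7 over the 11 lists was above that of 83.2% of the 23055 genes with a peak in any list. The mean of ACT4 was above that of 25.3% of them.

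**Figure D2:**
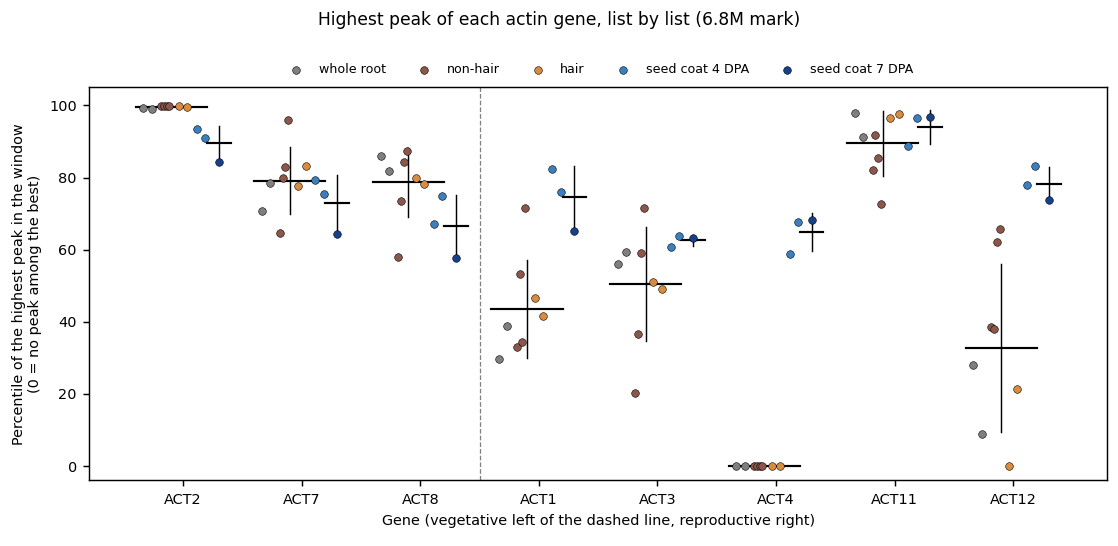
Percentile of the highest peak of each actin gene in the 11 lists with the 6.8M mark. Each point is a list, horizontal lines are the means of the 8 root and the 3 seed coat lists, and vertical lines show ± SD. ACT4 is at 0 in all 8 root lists and at 58.8 to 68.1 in the 3 seed coat lists.

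Between seed coat and root, ACT4, ACT12 and ACT1 ranked higher in the seed coat and ACT2 ranked higher in the root. The comparison asks how the same promoters are opened in a cell layer of the developing seed and in the root. It used an exact two-sided permutation of 3 seed coat against 8 root lists, adjusted by Benjamini-Hochberg over 23055 genes with a peak in any list. Of the 8 genes, 3 were called higher in the seed coat at adjusted p under 0.05, where 17.1% of all genes tested were, and 1 was called higher in the root, where 14.1% were. In either direction 4 of 8 were called, where 31.2% of all genes were, and with so few genes nothing particular to actin is read from these counts. The call needed all 3 seed coat lists, as leaving out any of them left no gene of the genome called.

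ACT2, a strongly expressed vegetative actin, stood near the top of every root list. Its percentiles were 99.2 and 99.1 in whole root, 99.9 in each of the 4 non-hair lists, and 99.8 and 99.6 in hair. In the seed coat they were 93.4 and 90.8 at 4 DPA and 84.2 at 7 DPA, so the groups did not overlap. The seed coat mean was 10.2 lower (89.5 ± 4.73, n = 3, against 99.7 ± 0.325, n = 8; adjusted p = 0.0229, exact permutation). Among lists of the same GL2 line, which have the same transgenes, the seed coat was 10.4 lower than the 4 non-hair lists (exact permutation p = 0.0286, the smallest possible, adjusted p = 0.0966). That comparison was chosen after seeing the data, and no gene of the genome passed in it.

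The ACT2 peaks also differed in place. The highest promoter peak was centred at -255 bp in both whole root lists and the hair pool, at -295 in hair replicate 1, and at -235, -255, -115 and -75 in non-hair replicates 1 to 4. In the seed coat lists it was at 5, 25 and -15 bp, on the TSS itself. Every seed coat list was thus further downstream than every root list, by 222.5 bp on average (5 ± 20 bp against -217.5 ± 78.1 bp). This held for 2.68% of the 5308 genes with a promoter peak in all 11 lists, and the ACT2 shift was larger than that of 98.9% of them. The test gave p = 0.00606 (exact permutation) and adjusted p = 0.169, with 0 genes (0%) called and 576 at unadjusted p under 0.05. Whole root replicate 1 held both forms, a peak at -255 bp (99.2) and another at 25 bp (98.7), and its unmarked list had peaks at -255 and -15 bp. In the unmarked lists the ACT2 peak lay at 45 bp in both seed coat stages and in open flowers, at -55 in unopened flowers, at -275 in hair and at -235 in non-hair. The measure was chosen after seeing the data.

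A further ACT2 site lay 2865 bp from the TSS, past the 3-prime end and nearer to the TSS of the neighbour AT3G18790, which starts 457 bp past ACT2. It stood at 82.7 to 93.0 in the 8 root lists and at 59.9, 60.6 and 64.3 in the seed coat lists (difference -25.5, adjusted p = 0.0258, exact permutation over all sites). For the transgenes, the values that bear on copies are those of the NTF promoters. GL2 ranked at 99.5 to 99.9 in the 7 lists of its line and at 59.5 to 79.1 in the other 4, ADF8 at 99.9 in both lists of its line and at 12.7 to 67.4 elsewhere, and UBQ10 at 99.4 and 99.8 in the lists of its line and at 72.9 to 98.3 elsewhere. These promoters were chosen for activity in the captured cells, so a transgenic copy and open native chromatin cannot be told apart. No line without an ACT2 promoter transgene is among these samples.

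ACT7, the auxin-responsive vegetative actin, had the highest of its peaks far upstream in 8 of the 11 lists. A site centred at -1637 bp was present in all 11 lists, at 64.3 to 79.3 in the seed coat and 50.9 to 83.1 in the root. No TSS of another protein-coding gene is nearer to it. The best percentile of the gene was 70.6 and 78.5 in whole root, 64.6, 79.8, 83.0 and 95.9 in non-hair, and 77.7 and 83.1 in hair. It was 79.3 and 75.5 at 4 DPA and 64.3 at 7 DPA. These ranges overlap widely and the difference of -6.10 did not pass (adjusted p = 0.447, exact permutation). The value of 95.9, the highest, came from a peak at -127 bp in non-hair replicate 4. Nearer the gene, each root list had a peak centred between -447 and -267 bp, whereas the seed coat peaks lay at -127 bp in 4 DPA replicate 1, at -67 in the 4 DPA pool, and at -207 and 73 at 7 DPA.

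ACT8, which acts with ACT2 in root hair growth, had its promoter peak in all 11 lists at -185 to -65 bp. Its percentiles were 86.0 and 81.8 in whole root, 58.0, 73.4, 84.4 and 87.4 in non-hair, and 79.9 and 78.3 in hair, against 67.1, 74.9 and 57.8 in the seed coat. The seed coat lists fell within the lower part of the root range, apart from the 7 DPA list just under it. The difference of -12.0 did not pass (adjusted p = 0.158, exact permutation). Weaker peaks past the 3-prime end, at percentiles up to 56.8, lay closest to the TSS of AT1G49245, 2 bp past the annotated end of ACT8.

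**Figure D3:**
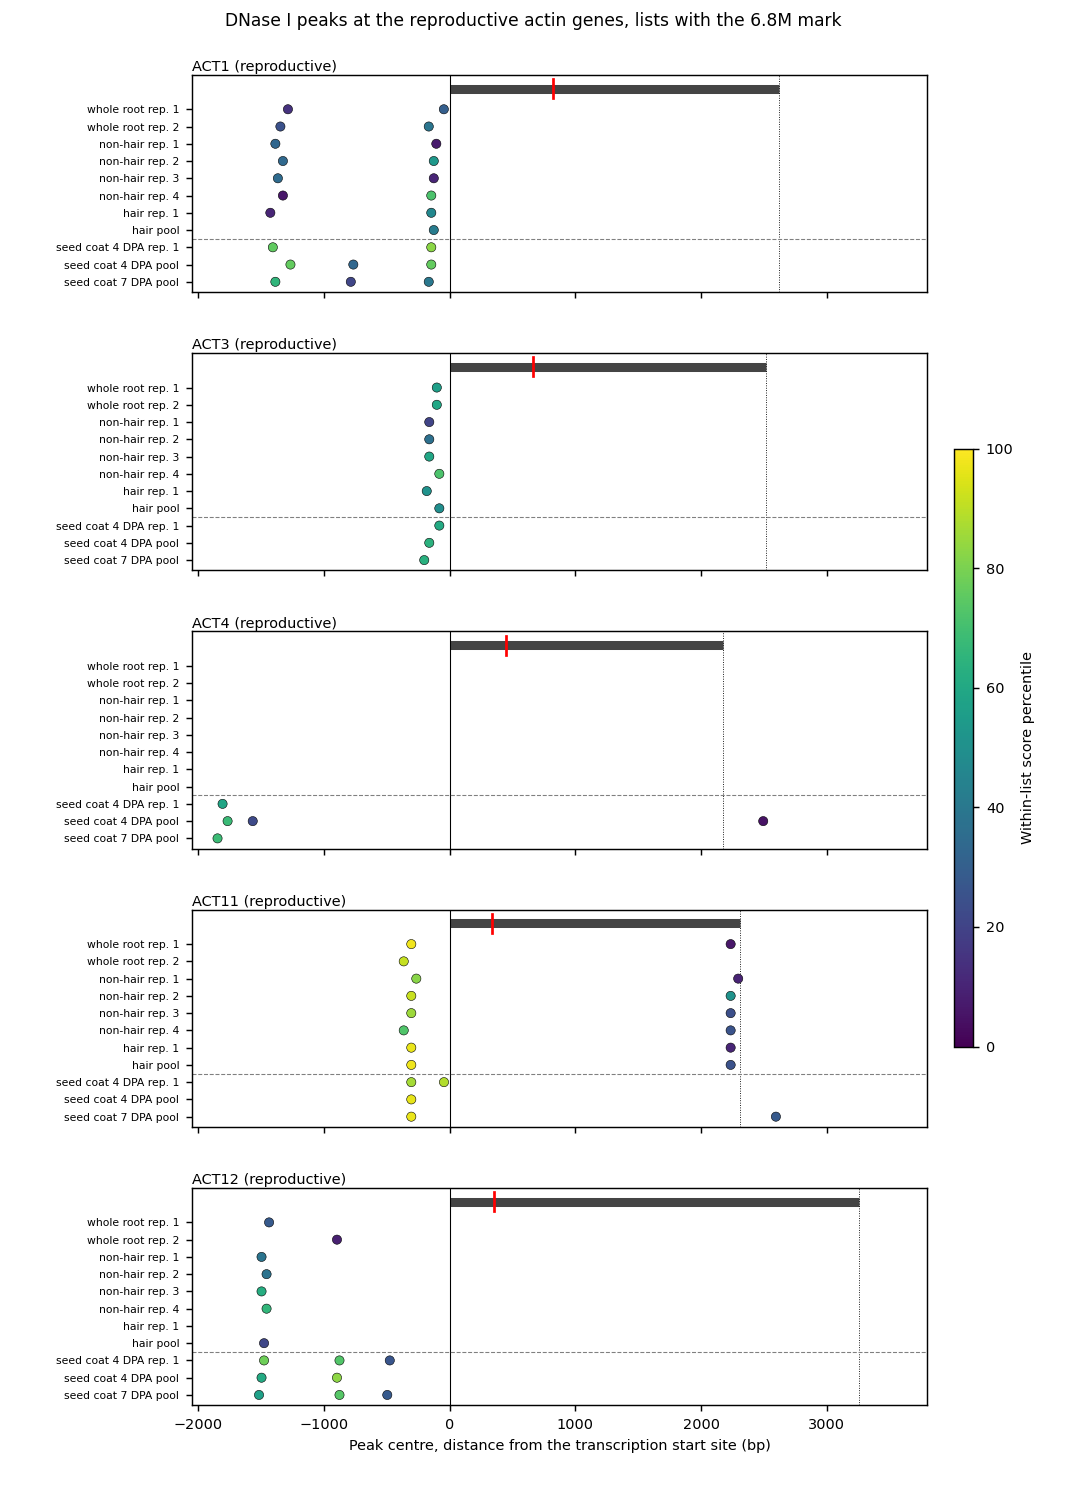
Peaks at ACT1, ACT3, ACT4, ACT11 and ACT12 in the 11 lists with the 6.8M mark, with axes, colours and marks as for the vegetative genes. ACT11 has a peak between -365 and -265 bp in every list, whereas ACT4 and ACT12 have no promoter peak among those ranked, and their nearest ranked upstream peaks in the seed coat lie at -1566 and -476 bp.

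ACT4, a gene known from pollen, had the largest difference of the 8 genes. No list of any depth, 0 of 21, had a peak from 400 bp upstream to 100 bp downstream of its TSS, and it had no ranked peak at all in the 8 root lists. In the seed coat it stood at 58.8 and 67.8 at 4 DPA and 68.1 at 7 DPA (mean 64.9 ± 5.27, n = 3; adjusted p = 0.0229, exact permutation). All 3 values came from the intergenic site whose sequence is given, centred at -1806 bp. The nearest TSS is that of AT5G59360, on the opposite strand at -3231 bp. The only other upstream peak of ACT4 was at -1566 bp in the 4 DPA pool (22.6).

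ACT12, known from pollen, was also higher in the seed coat. Its percentiles were 28.1 and 8.86 in whole root, 38.6, 38.0, 62.0 and 65.7 in non-hair, and 0 and 21.3 in hair. They were 78.0 and 83.1 at 4 DPA and 73.7 at 7 DPA, above all root lists. The difference was 45.4 (78.3 ± 4.71 against 32.8 ± 23.3; adjusted p = 0.0388, exact permutation). The site centred at -886 bp stood at 72.9, 83.1 and 73.7 in the seed coat lists, at 8.86 in whole root replicate 2 and at 0 in the other 7 root lists (adjusted p = 0.0258, exact permutation). A second site, at -1476 bp, was shared by 6 root lists and all 3 seed coat lists, and its difference of 33.4 did not pass (adjusted p = 0.170, exact permutation). Both lie nearer to the TSS of PUB13, an E3 ubiquitin ligase gene on the opposite strand that starts at -1314 bp. Within 400 bp upstream, ACT12 had no peak among the best of the 11 lists, and 1 in non-hair replicate 4, at -156 bp, that was outside them.

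ACT1, which with ACT3 forms a pair of pollen-expressed copies, was higher in the seed coat as well. It ranked at 29.8 and 38.8 in whole root, 32.9, 53.3, 34.4 and 71.6 in non-hair, and 46.5 and 41.6 in hair, against 82.5, 76.0 and 65.2 in the seed coat. Non-hair replicate 4 lay above the 7 DPA list, so the groups overlapped. The difference was 31.0 (74.6 ± 8.70 against 43.6 ± 13.6; adjusted p = 0.0388, exact permutation). By site, the difference passed at -1346 bp, inside the neighbour AT2G37610 close to its TSS, where the seed coat lists stood at 75.6, 76.0 and 65.2 and the root lists at 0 to 34.4 (adjusted p = 0.0258, exact permutation). At the ACT1 promoter site, centred at -106 bp, the difference of 28.8 did not pass (adjusted p = 0.193, exact permutation). The 7 DPA list was at 40.1 there, within the root range.

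ACT3, the other gene of that pair, had a single site at -142 bp, present in all 11 lists. The site lies between the TSS of ACT3 and that of AT3G53740, which starts on the opposite strand at -191 bp. Its centre is nearer to AT3G53740, and only 3 of the 11 peaks were nearest to the TSS of ACT3. The site ranked at 56.0 and 59.5 in whole root, 20.2, 36.6, 59.2 and 71.6 in non-hair, 51.1 and 49.2 in hair, and 60.8, 63.7 and 63.3 in the seed coat. The seed coat lists lay inside the root range (difference 12.2, adjusted p = 0.341, exact permutation).

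ACT11, known from ovules, embryos and pollen, ranked high in every tissue. It stood at 97.9 and 91.4 in whole root, 82.2, 91.7, 85.5 and 72.5 in non-hair, 96.6 and 97.6 in hair, and 88.6, 96.4 and 96.9 in the seed coat. The groups overlapped (difference 4.53, adjusted p = 0.593, exact permutation). The peak was centred at -305 bp in 8 of the 11 lists and at -265 or -365 in the other 3. It lies in the stretch shared with AT3G12100, which starts on the opposite strand at -461 bp. In all 11 lists this peak was nearer to the TSS of AT3G12100 than to that of ACT11. The 4 DPA replicate 1 list had an added peak at -45 bp, nearest to the TSS of ACT11 itself, at 88.6. A site in the 3-prime UTR of ACT11, 2265 bp from the TSS, was among the best peaks of 7 root lists (up to 51.2) and of no seed coat list, and did not pass (adjusted p = 0.193, exact permutation).

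Taking the merged sites of the 8 genes one by one, 3 of 24 were called higher in the seed coat and 2 of 24 higher in the root. Over all 44836 sites the shares were 14.2% and 12.1%. The 3 are the upstream sites of ACT4, ACT12 and ACT1, none of which has the named actin gene as its nearest TSS, and the 2 are both of ACT2. Of the 24 sites, 8 had a peak in all 11 lists and 5 in a single list. Sites were chosen as a unit after seeing the data. When 1 root list was left out, ACT2 and ACT4 were called in all 8 cases (adjusted p at most 0.0320, exact permutation), ACT12 only without non-hair replicate 3 or 4, and ACT1 only without non-hair replicate 4. Over these cases the difference was 40.8 to 50.1 for ACT12 (adjusted p at most 0.0898, exact permutation) and 28.99 to 34.95 for ACT1 (at most 0.0537), close to the values with all lists. The calls of the reproductive genes also rested on the window: with each peak given to its nearest TSS alone, the difference was 7.54 for ACT4 (adjusted p = 0.408, exact permutation), 18.1 for ACT12 (0.123) and 28.8 for ACT1 (0.175), and ACT2 alone was still called. Within the GL2 line, seed coat minus non-hair was 64.9 for ACT4 (adjusted p = 0.0966, exact permutation), 27.2 for ACT12 (0.147) and 26.5 for ACT1 (0.242). The summed floral organ, pollen and seed coat markers were also higher in every seed coat list than in any root list, with the sums given, and their part in the result was not tested.

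**Figure D4:**
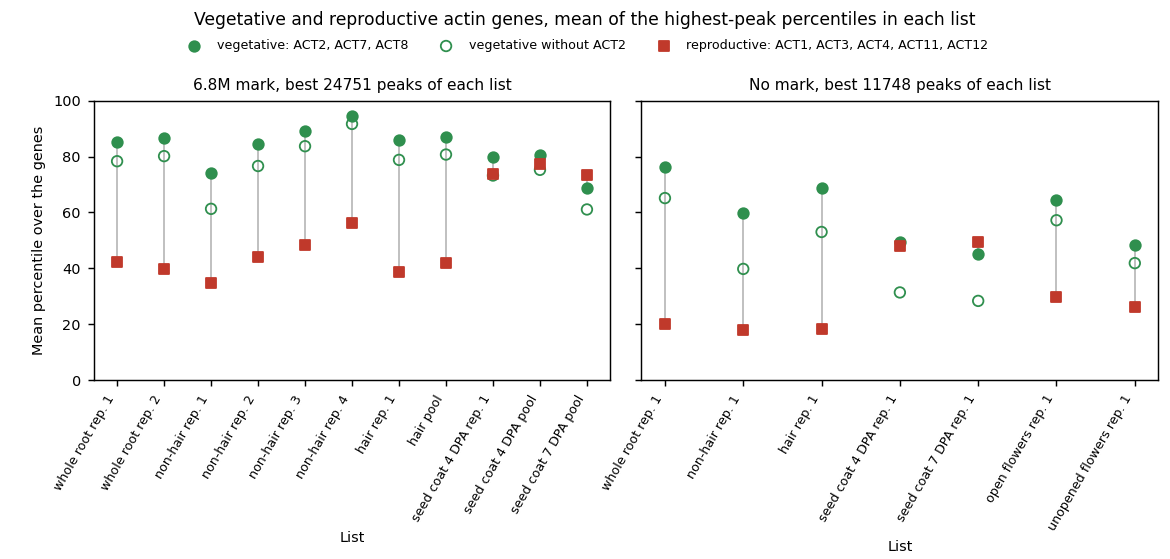
Mean percentile of the vegetative genes (filled circles, open circles without ACT2) and of the reproductive genes (squares) in each list. The left panel has the 11 lists with the 6.8M mark and the right panel the 7 unmarked lists, cut to different lengths, so levels compare within a panel only. The vertical gap is 38.1 to 47.0 in the 8 root lists and -4.66 to 6.20 in the 3 seed coat lists.

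As groups, by the highest peak anywhere in the window, the vegetative genes ranked well above the reproductive genes in the root and level with them in the seed coat. The seed coat values of ACT4 and ACT12 all came from upstream sites nearer to the TSS of another gene. Neither gene had a ranked promoter peak in these lists, so the level standing is not one of promoters. The mean of ACT2, ACT7 and ACT8 exceeded the mean of the 5 reproductive genes by 38.1 to 47.0 in the root lists. In the seed coat lists the gap was 6.20 and 3.03 at 4 DPA and -4.66 at 7 DPA. Without ACT2 it was 26.5 to 40.4 in the root and -0.543, -2.17 and -12.4 in the seed coat. The reproductive mean was 34.8 to 56.3 in the root lists and 73.4 to 77.4 in the seed coat lists, whereas the mean of ACT7 and ACT8 was 61.3 to 91.7 in the root and 61.1 to 75.2 in the seed coat. These means are descriptions of the 8 genes and carry no test. The share of all genes with a peak was 63.4% to 69.1% in the root and 68.2% to 69.0% in the seed coat lists, and the median percentile of those genes 54.4 to 60.1 and 58.0 to 61.2.

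Within the root, no gene of the genome passed the adjusted threshold in either comparison, and the actin genes are given by their values. For whole root against the 6 epidermal lists (0% of 21503 genes called, 2571 at unadjusted p under 0.05, exact permutation), 1 of the 7 actin genes tested had groups that did not overlap, against 20.1% of all genes. That gene was ACT2, at 99.1 and 99.2 in whole root and 99.6 to 99.9 in the epidermal lists (exact permutation, adjusted p = 0.299). Whole root came from the UBQ10 line at 7 days, the epidermal lists from the ADF8 and GL2 lines at 7 or 10 days. Tissue, line and age cannot be told apart in this comparison. For hair against non-hair (0% of 21094 genes called, 0 at unadjusted p under 0.05 because 2 against 4 lists cannot go below 0.0667), 3 of 7 did not overlap, against 29.2% of all genes. ACT11 was higher in hair, at 96.6 and 97.6 against 72.5 to 91.7 (difference 14.1, exact permutation p = 0.133). Each of these ACT11 peaks was nearest to the TSS of AT3G12100. ACT12 was lower, at 0 and 21.3 against 38.0 to 65.7 (difference -40.4, p = 0.0667, exact), at the site nearest to the TSS of PUB13. ACT2 was lower by 0.198 (p = 0.0667, exact), and ACT7, ACT8, ACT1 and ACT3 overlapped. Both hair lists are from 7-day and 3 of 4 non-hair lists from 10-day seedlings, and the lines differ, so cell type, line and age cannot be told apart. In non-hair replicate 2, the 7-day list, ACT12 was at 38.0 and ACT11 at 91.7.

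Between the seed coat stages no test is possible with 1 list at 7 DPA. The 4 DPA mean exceeded the 7 DPA value by 14.0 for ACT1, 13.2 for ACT8, 13.1 for ACT7, 7.88 for ACT2 and 6.87 for ACT12. The difference was negative for ACT3 (-1.04), ACT11 (-4.36) and ACT4 (-4.81). All 3 vegetative genes thus ranked lower at 7 DPA than in both 4 DPA lists, and ACT4 and ACT11 ranked highest there. For ACT2, ACT1 and ACT12 the 7 DPA value was also under both 4 DPA values. In the 3 seed coat lists with the other, slightly lower mark, made from the same samples, the differences had the same signs, at 19.5 for ACT1, 8.06 for ACT7, 5.49 for ACT8 and -6.84 for ACT3. There ACT8 at 7 DPA (62.0) lay between the 4 DPA values (60.2 and 74.8).

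**Figure D5:**
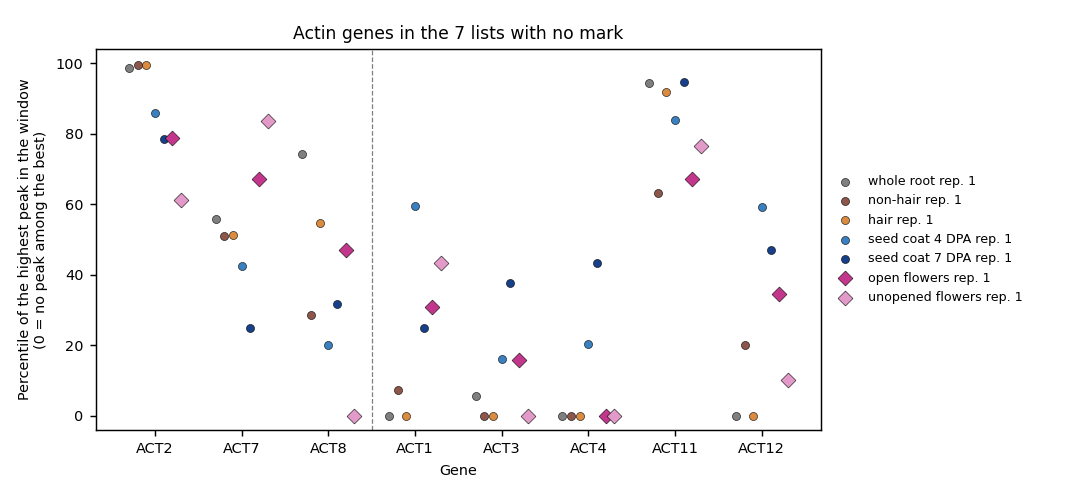
Percentile of the highest peak of each actin gene in the 7 lists with no mark, each cut to 11748 peaks. Diamonds are the 2 flower lists and circles the root and seed coat lists, with 1 list per tissue and stage. After this cut, ACT7 is at 67.3 and 83.7 in the flower lists, above the other 5.

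Flowers hold the anthers and pollen in which the reproductive copies are known to be expressed, and none of the 5 had both flower lists above all the others. No gene passed over 17439 tested (0%, with 1566 at unadjusted p under 0.05; 2 flower lists against 5 cannot go below p = 0.0476, exact permutation). Of the 8 actin genes, 1 had flower lists apart from all others, against 13.4% of all genes. Nothing particular to actin is read from that count. It was the vegetative gene ACT7, at 67.3 in open and 83.7 in unopened flowers and at 24.9 to 55.9 elsewhere (difference 30.4, exact permutation p = 0.0476, adjusted p = 0.530). In whole lists, whose lengths differ, its highest peak was at 82.3 in whole root, 78.6 in non-hair, 77.2 in hair and 79.0 at 4 DPA. There open flowers were at 67.3, unopened flowers at 85.4 and the 7 DPA list at 35.4, so the groups overlapped. The flower peaks of ACT7 were those of the upstream site, at -1647 and -1687 bp.

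ACT2 ranked at 79.0 in open and 61.2 in unopened flowers, against 98.7 to 99.7 in the 3 root lists and 86.0 and 78.6 in the seed coat (difference from all 5 lists -22.5, adjusted p = 0.683, exact permutation). ACT8 was at 47.1 in open flowers and had no ranked peak in unopened flowers. Among the reproductive genes, ACT11 was at 67.3 and 76.7 and ACT1 at 30.8 and 43.4 in open and unopened flowers. Elsewhere ACT1 was at 0, 7.30 and 0 in whole root, non-hair and hair, at 59.7 in the 4 DPA list and at 24.9 in the 7 DPA list. After the cut, the flower values thus lay above the root and within the seed coat range. In whole lists, whose lengths differ, ACT1 was at 45.6, 59.5 and 44.6 in whole root, non-hair and hair. It was at 30.8 and 49.2 there in open and unopened flowers, so flowers did not lie above the root. ACT12 was at 34.5 and 10.2 and ACT3 at 15.9 and 0. ACT4 was at 0 in both flower lists and in the 3 root lists, and at 20.3 and 43.3 in the seed coat.

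The gap between vegetative and reproductive means was 34.8 in open and 22.3 in unopened flowers. It was 41.7 to 56.3 in the 3 unmarked root lists and 1.75 and -4.37 in the seed coat lists. With ACT2 included, both flower lists thus lay between those tissues. Without ACT2 the gap was 27.5 in open and 15.8 in unopened flowers, and 45.1, 21.7 and 34.6 in whole root, non-hair and hair. In the seed coat it was -16.5 at 4 DPA and -21.1 at 7 DPA. Open flowers then lay within the root range, and only unopened flowers lay between the tissues. The pollen markers AT59 and BCP1 stood at 79.0 and 49.9 in open and at 18.6 and 27.1 in unopened flowers, VGD1 at 0 and 10.2, and the remaining 2 at 0. Capture in flowers also needed the ACT2 promoter of the birA transgene to be active, and whether pollen nuclei were among those captured was not tested. ACT12 had its only ranked promoter peak of the unmarked lists in open flowers, at -116 bp and percentile 7.47.

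Genes whose products bind actin were taken as a list of 41 in 9 families, without the actin depolymerising factors, and 35 had a peak to test. Between seed coat and root, 8 of 35 (22.9%, against 17.1% of all genes) were called higher in the seed coat and 5 of 35 (14.3%, against 14.1%) higher in the root. The median difference was 7.95, against 3.47 over all genes tested. The largest difference was at PRF4, a profilin known from pollen that binds actin monomers, and it was higher in the root (74.2 ± 10.1, n = 8, against 12.3 ± 11.4, n = 3). CAP1, a cyclase-associated protein that recycles actin monomers, was higher in the seed coat (89.5 ± 3.84 against 36.9 ± 24.1), as was AT5G55400, annotated as an actin binding calponin homology protein (89.8 ± 2.00 against 37.3 ± 13.1). FH1, a formin that nucleates filaments, stood at 65.2 ± 7.51 against 22.7 ± 13.6. AT2G04750, annotated like AT5G55400, stood at 41.2 ± 20.6 against 0 in all root lists, and VLN1, a villin that bundles filaments, at 42.9 ± 11.1 against 8.88 ± 9.27. Each of these 6 had adjusted p = 0.0229 (exact permutation), the smallest the design gave. Their peaks were assigned by the same wide window, and whether the TSS of another gene was nearer was not examined. By family, 2 of 4 tested fimbrins and 2 of 5 formins were called for the seed coat, and 2 of 5 villins for the root. The families of myosins, SCAR/WAVE and capping proteins had no call for the seed coat, and the list was chosen with earlier results known.

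The gene whose percentile followed each actin gene most closely over the 11 lists was found by Pearson's r among 18766 to 18768 genes with a peak in at least 6 lists and no shared peak. The closest was BT2 for ACT2 (r = 0.996), AT5G56670 for ACT11 (0.986), ELIP1 for ACT1 (0.978) and RECQI1 for ACT12 (0.976). For ACT8 it was POK2 (0.954), for ACT7 COP8 (0.943) and for ACT3 AT5G60160 (0.926). The points are lists that share tissues and lines, the best of so many genes is high by selection, and ACT4 had a peak in too few lists to enter. No other actin gene was the closest to any of these.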

How the data were processed

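DNase I peaks from 17 samples came as 22 lists, 21 of them distinct, since 2 lists of seed coat 4 DPA were identical byte for byte and counted once. Reads were aligned with Bowtie 0.12.7 to TAIR10, per the submitters' processing notes, and the peak caller is not named there. The deposited score of each peak (150 bp wide in the marked lists, 150 to 290 bp in the others) is a whole-number height made by the authors, and the deposited −log10 p column was not used. Some lists pool replicates, as the authors deposited them.

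Each list was cut to equal length, ranked and turned into percentiles (ties share their mean rank), and the best peak in the window gave the gene's value. Ranks from lists of different length would not compare. Genes were from RefSeq TAIR10.1, whose nuclear chromosomes are those of TAIR10. Groups were compared by an exact two-sided permutation over lists with Benjamini-Hochberg adjustment over all genes tested and a threshold of 0.05, run in Python 3.11.15 with numpy 2.4.6, pandas 2.3.3 and matplotlib 3.10.9, and tested on simulated data. All 8 actin genes are named, the 6 actin-binding genes with the largest differences past the threshold, and the most alike gene by Pearson's r. The members and lists were chosen with earlier results of these data known. Alternatives were whole lists, presence or absence, a promoter window, own-TSS peaks, a cut at 0.5 of the list length, other marks, no pools and leaving out each list. The depth per list is unknown, and a value of 0 means only that no peak was among those ranked.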

Additional observations from a re-analysis of the deposited data

How the results depend on the processing

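The count of genes called between seed coat and root, 7198, was 0 with presence or absence of a peak (2112 at unadjusted p under 0.05), 3576 in the promoter window and 4627 with lists cut at 0.5 of that length. It was 0 without pooled lists, where p cannot go below 0.125, and 0 with GL2-line non-hair cells as the root side, chosen after seeing the data, where p cannot go below 0.0286. Leaving out each list gave 0 to 8004, with 0 for each of the 3 seed coat lists, where p cannot go below 0.0222. All other comparisons had 0 under every alternative run.

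Signs that turned belonged to differences that passed no test, and the cause was not tested. For seed coat against root, ACT7 was 12.6 in the promoter window and 0.695 without pooled lists. For whole root against epidermal lists, ACT12 was 0.167 by share of lists with a peak, ACT7 10.4 in the promoter window, and ACT3 -20.1 and ACT11 -21.2 with own-TSS peaks. For hair against non-hair, ACT3 was -0.272 with whole lists and -14.3 with the shorter lists, ACT1 8.43 in the promoter window and with own-TSS peaks, and ACT11 -9.90 with own-TSS peaks. There, leaving out a list gave -5.83 to 4.60 for ACT7, -2.63 to 7.19 for ACT8, -9.03 to 3.85 for ACT1 and -5.67 to 11.4 for ACT3. For flowers, ACT1 was -14.0 with whole lists and -3.87 with the shorter lists, ACT12 0.400 by share of lists and 3.73 in the promoter window and with own-TSS peaks, ACT7 -12.9 in the promoter window, and ACT11 19.7 with own-TSS peaks. Leaving out a list gave -15.0 to 9.26 for ACT12, -11.9 to 4.00 for ACT3 and -41.9 to 5.16 for ACT8.

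No paired analysis was possible because the replicate numbers were given in accession order and link no lists across tissues. Lists of 1 to 4 per group and unknown depth limit all comparisons.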
